A study of Mus musculus with 4 samples.

Results

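Mural cells are the contractile and supporting cells on the outer wall of small blood vessels. Among the cells sorted from regenerating mouse muscle they were selected on their own RNA. A cell counted as mural when at least 3 of 7 marker genes (Rgs5, Kcnj8, Abcc9, Higd1b, Ndufa4l2, Gucy1a1 and Steap4) had 2 or more UMIs each and when it held no UMI of Cd74, a chaperone of antigen presentation. A UMI, or unique molecular identifier, stands for 1 captured RNA molecule. Only cells with at least 5000 UMIs, at least 1000 genes and at most 10% mitochondrial UMIs were considered. The rule found 243 cells among 9611 kept cells, out of 16519 barcodes in all. Because the markers chose the cells, the levels that set them apart are given as a description and were not tested.

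The cells came from the tibialis anterior muscle of 12-week-old mice, on day 6 after cardiotoxin, a venom toxin injected to injure the fibres so that they regenerate. The sort was for α7-integrin and against CD45, CD31 and Sca1, a gate for myogenic progenitors. The control group was Pax7Cre and the second group was Pax7Cre with a floxed miR-501 gene on the X chromosome (miR-501fl/Y), called miR-501KO, with 2 libraries each. Each library held cells of 3 pooled mice, and replicates 1 and 2 of both groups were made in runs 1 and 2. Mice of both groups carried the Cre recombinase and all were injured. The Pax7 promoter drives Cre in the myogenic lineage, and whether miR-501 was deleted in mural cells was not measured here. Values are listed in the order Pax7Cre replicate 1, Pax7Cre replicate 2, miR-501KO replicate 1 and miR-501KO replicate 2, and a level is in UMIs per 10000 UMIs summed over the mural cells of a library unless another unit is given.

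Mural cells comprise pericytes, which sit in the basement membrane of capillaries, and the smooth muscle cells of arterioles and venules. Pericytes are recruited to new vessels by PDGF-B from endothelial cells, which they sense with the receptor Pdgfrb, and Notch3 helps to keep the mural identity. Their tone is set by potassium channels, by receptors for hormones such as endothelin, and by nitric oxide, which acts through soluble guanylyl cyclase. In injured muscle, vessels are rebuilt beside the new fibres.

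The gene deleted in the knockout encodes the microRNA miR-501, which lies in an intron of Clcn5. Its mature strands are shown because they define the groups. The sequences are from RefSeq (GRCm38.p6, minus strand, chrX:7241270-7241291 for the 3p strand and chrX:7241307-7241328 for the 5p strand), written 5′ to 3′ with the seed, bases 2 to 8, in capitals.
mmu-miR-501-3p: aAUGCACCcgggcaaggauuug
mmu-miR-501-5p: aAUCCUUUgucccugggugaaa
The files hold no row for this microRNA, so its level could not be checked in any library. The host gene Clcn5, which encodes a chloride transporter, was at 0.257, 0.272, 0.118 and 0.212 in mural cells and at 1.57 in progenitors. Pax7, the gene of muscle stem cells whose promoter drives Cre, was at 0.0507, 0.188, 0.0224 and 0.0470, against 1.03 in progenitors. With each cell thinned to 5000 UMIs it was detected in 0.823% of mural cells and 40.02% of progenitors. Esrrg, a nuclear receptor gene, had no UMI in any of the 243 mural cells, which allows a share of cells with a UMI of up to 1.23%.

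The 243 mural cells were 107, 19, 79 and 38 cells of the 4 libraries. They made up 3.47% (95% Wilson interval 2.88 to 4.17), 1.10% (0.705 to 1.71), 2.90% (2.34 to 3.60) and 1.83% (1.34 to 2.51) of kept cells. Both libraries of run 1 held a larger share than both of run 2. The mean share was 2.28% ± 1.18 (SEM, n = 2 libraries) in Pax7Cre and 2.37% ± 0.535 (SEM, n = 2) in miR-501KO. The difference of 0.0842 percentage points was within the spread between libraries (exact two-sided permutation test, p = 1.0, where 2 libraries against 2 cannot give a p under 0.3333). Within run 1 the knockout share was lower by 0.565 points and within run 2 it was higher by 0.733 points. This sign depended on the denominator, since the rule bars cells with Cd74 UMIs. As a share of kept cells without Cd74 UMIs, the knockout was higher by 0.766 points in run 1 and by 0.762 in run 2. Intervals cover counting error only. In such a sort the share also depends on how many vessel cells passed the gate, which was not measured.

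Depth in mural cells was lower than in progenitors. The median was 25235, 15540, 16964 and 16272.5 UMIs per mural cell, against 30846 to 36187 in the progenitors of the 4 libraries. Summed over cells, the mural cells of the 4 libraries gave 3153217, 478160, 1783520 and 850798 UMIs, so Pax7Cre replicate 2 with its 19 cells had the least precise levels. Median mitochondrial shares were 3.90%, 3.81%, 4.77% and 2.82%. Of the 243 barcodes, 1 was also found among the kept cells of another library, and over all kept cells 18 were.

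Of 10 further pericyte genes that the rule did not use, most were present in most of the cells, but not all. Anpep had UMIs in 47.7% of mural cells and P2ry14 in 21.0%. Notch3, a receptor of the Notch family, had UMIs in 97.9% of mural cells, and Pdgfrb in 96.3%. Vtn, which encodes vitronectin, had them in 94.7%, Mcam (CD146) in 90.5% and Cspg4 (NG2) in 72.02%. With each cell thinned to 5000 UMIs, Pdgfrb was detected in 84.8% of mural cells and 7.07% of progenitors, and Vtn in 79.01% of mural cells and 3.21% of progenitors. Notch3 was also frequent elsewhere, at 84.4% of mural cells and 44.6% of progenitors after thinning. Mcam and Cspg4 were more frequent in Schwann-like cells than in mural cells. After thinning, Mcam was detected in 70.0% of Schwann-like and 60.9% of mural cells, and Cspg4 in 51.8% and 41.1%.

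Markers of other cell types were low over the mural cells as a whole. The 8 Schwann cell genes summed to 0.149, 0.146, 0.151 and 0.106, with Foxd3 and Sox10 at 0, and the 8 macrophage genes to 0.197, 0.272, 0.264 and 0.1998. The 7 progenitor genes summed to 0.771, 1.28, 0.342 and 0.494, against 9.54 in progenitors. The 8 endothelial genes summed to 1.76, 8.62, 1.03 and 1.84, and Pax7Cre replicate 2 stood above the others. The 8 fibroblast and tenocyte genes summed to 1.86, 0.272, 0.998 and 7.88, and miR-501KO replicate 2 stood above the others. Some cells carried a second set of genes. Of the 243, 9 also met the rule of progenitors, 6 that of fibroblast-like cells, none that of Schwann-like cells, and 6 held 2 or more UMIs of at least 3 endothelial genes. No doublet caller was run, and only 4 mural cells lay above the 95th percentile of kept cells in UMIs.

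Genes of the sort showed how these cells stood to the gate. Itga7, which encodes the α7-integrin subunit, was at 1.16, 1.67, 1.72 and 1.27 in mural cells and at 1.18 in progenitors, and it was detected in 52.3% of mural cells and 42.5% of progenitors after thinning. Ptprc (CD45) had UMIs in 0.823% of mural cells. Pecam1 (CD31) was at 0.130, 1.76, 0.0336 and 0.0940 and Ly6a (Sca1) at 0.136, 2.49, 0 and 0.282. In Pax7Cre replicate 2, 82 of 84 UMIs of Pecam1 and 118 of 119 UMIs of Ly6a lay in a single cell.

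Rgs5, a regulator of G-protein signalling and a classical pericyte gene, was at 82.9, 107, 125 and 93.8, against 0.0498 in progenitors. Its spread over cells was wide, with a median of 97.9, 143, 146 and 109 UMIs per 10000 in single cells and a highest value of 336, 369, 341 and 254. Kcnj8 and Abcc9 encode the pore Kir6.1 and the regulatory subunit SUR2 of the vascular ATP-sensitive potassium channel. Kcnj8 was at 3.28, 5.25, 3.28 and 5.28 and Abcc9 at 3.45, 6.002, 4.63 and 5.45. Both were higher in both libraries of run 2 than in Pax7Cre replicate 1. Across the 243 cells the Spearman correlation of the pair was 0.711, and it was 0.683, 0.877, 0.703 and 0.732 within the libraries. Depth is shared by both genes of a cell, and the rule itself favours cells with both.

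Higd1b was at 5.12, 4.998, 3.79 and 6.49 and Steap4, a metalloreductase, at 3.23, 5.12, 5.03 and 5.45. Gucy1a1, the α1 subunit of soluble guanylyl cyclase, was at 3.35, 4.52, 5.57 and 4.24. After thinning, Rgs5 was detected in 98.8% of mural cells and 2.50% of progenitors, Gucy1a1 in 85.6% of mural cells and 0.450% of progenitors, and Steap4 in 76.95% of mural cells and 1.58% of progenitors.

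Cells near the threshold differed in their levels. Of the 243 cells, 151 passed with all 7 markers and 13 with just 3. Those 13 cells, 4 from Pax7Cre replicate 1 and 9 from miR-501KO replicate 1, held 39.9 UMIs of Rgs5 per 10000. Just outside, 49 cells without Cd74 UMIs had 2 markers, and they held 1.45 UMIs of Rgs5 per 10000, 2.43 of the progenitor gene Cdh15 and 4.15 of the fast myosin light chain gene Mylpf. A further 63 cells had 3 or more markers and UMIs of Cd74, and they were 7, 2, 51 and 3 cells of the 4 libraries.

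The genes that most set mural cells apart from the other classes, outside the rule, were ranked by their lowest ratio in any library to the highest level in progenitors, fibroblast-like or Schwann-like cells. Neither endothelial cells nor macrophages were a class in this comparison. Only genes at 1 UMI per 10000 or more in the mural cells of every library were ranked. In all, 1353 genes, those of the rule included, reached that level. Gja4, the gap junction gene of connexin 37, led the list at 1.28, 1.19, 1.53 and 1.54 with a lowest ratio of 963, against 0.00124 in the highest of the 3 classes. The adhesion gene Esam was at 1.51, 2.26, 1.79 and 1.82 with a lowest ratio of 406, and Cox4i2 at 4.18, 4.98, 4.07 and 5.21 with a lowest ratio of 218. Myh11, the smooth muscle myosin heavy chain, was at 2.38, 2.43, 6.28 and 1.87 with a lowest ratio of 212. The miR-501KO replicate 1 library stood above the other 3 in Myh11.

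Genes of fatty acid uptake were also among the leading genes. Cd36, a fatty acid transporter, was at 1.47, 3.56, 2.39 and 1.67. Fabp4, a fatty acid binding protein, was at 5.81, 15.3, 4.19 and 7.23. Both were highest in Pax7Cre replicate 2, the library in which a single cell held 82 of 84 UMIs of the endothelial gene Pecam1, and the part of that cell in these levels was not tested. Gucy1b1, the partner subunit of Gucy1a1, was at 2.42, 2.53, 3.26 and 2.84. Epas1, which encodes the hypoxia-regulated factor HIF-2α, was at 1.77, 2.55, 3.26 and 1.68. Procr, the protein C receptor, was at 6.17, 9.14, 8.999 and 5.29, and Ppp1r14a, an inhibitor of myosin phosphatase, at 2.67, 2.22, 3.15 and 2.68. The remaining genes of the 20 were Gm13889, Rasgrp2, Sncg, Hopx, Rgs4, Arhgdib, Rasl11a, Apold1, Vtn and Ifitm1, with lowest ratios between 11.4 and 93.4.

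**Figure D1:**
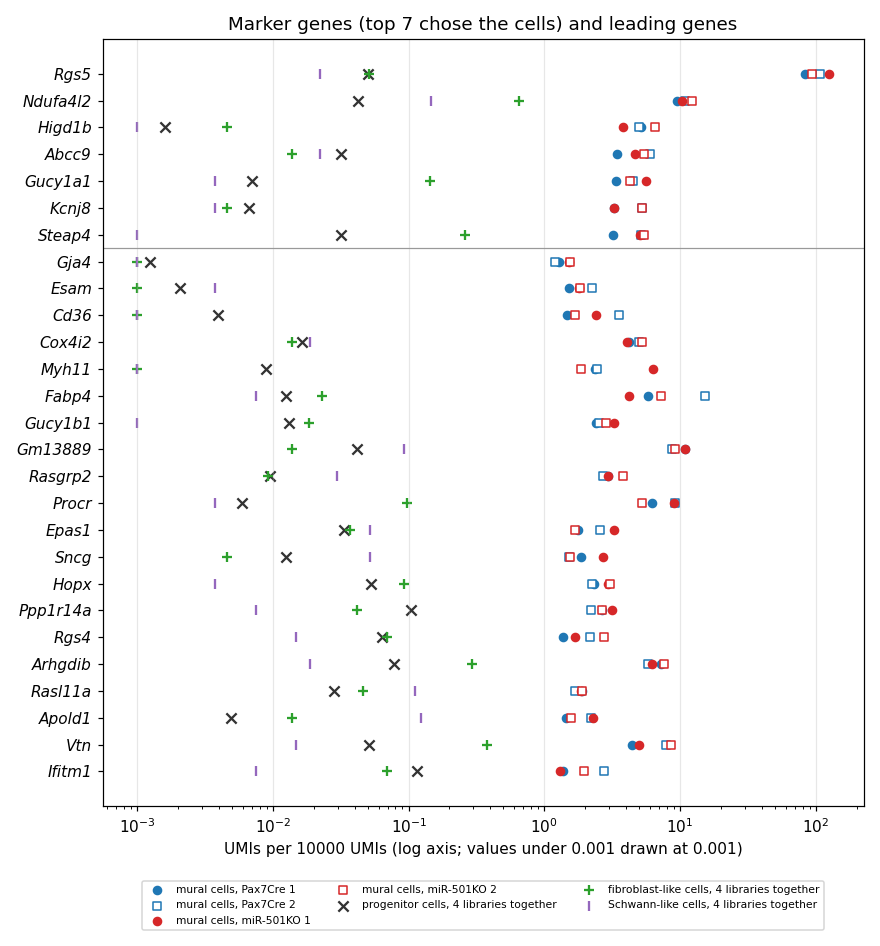
Level of the 7 marker genes that chose the cells (above the line) and of the 20 leading genes outside the rule (below), in UMIs per 10000 on a log axis. Circles and squares are the mural cells of replicate 1 and 2 of Pax7Cre (blue) and miR-501KO (red), and crosses, plus signs and bars are the other 3 classes over 4 libraries together. Rgs5 lay between 82.9 and 125 in mural cells and at 0.0498 in progenitors.

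A pair of mitochondrial genes appeared in mural cells in place of, or beside, their common relatives. Ndufa4l2 and Ndufa4 encode related subunits linked to the respiratory chain, and Cox4i2 and Cox4i1 are the inducible and the general form of cytochrome c oxidase subunit 4. UMIs were counted at the 3′ end, 1 per molecule, so UMIs of related genes could be set against each other. Of the UMIs of both Ndufa4 genes, Ndufa4l2 took 87.9% (95% Wilson interval 86.8 to 89.0), 91.2% (88.6 to 93.3), 92.2% (90.9 to 93.3) and 92.9% (91.2 to 94.3). In progenitors it took 0.639% (0.601 to 0.679) over the 4 libraries together, and 0.376% to 1.11% within single libraries. In fibroblast-like cells it took 12.0% (10.3 to 14.03) together, and 28.9%, 9.41%, 2.76% and 7.94% in the 4 libraries. The intervals cover counting error only, and the pooled ones leave out the spread between libraries. Ndufa4l2 was one of the genes that chose the cells, but Ndufa4 was not, and Ndufa4 was at 1.31, 1.05, 0.886 and 0.928 in mural cells against 6.54, 4.72 and 4.74 in progenitors, fibroblast-like and Schwann-like cells.

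Cox4i2, which the rule did not use, took 26.4% (25.2 to 27.7), 31.4% (28.2 to 34.8), 27.2% (25.5 to 28.9) and 29.7% (27.4 to 32.02) of the UMIs of both Cox4 genes in mural cells. Over the libraries together its share was 0.130% (0.117 to 0.143) in progenitors and 0.217% (0.0928 to 0.508) in Schwann-like cells. Within single libraries it was 0.107% to 0.205% and 0.104% to 0.512%. The general form Cox4i1 was at 10.9 to 12.3 in mural cells and at 12.5, 8.58 and 8.56 in the other 3 classes, so it was near their range while Ndufa4 was below it. Of other genes that low oxygen induces, Adm, which encodes the vasodilator adrenomedullin, was at 0.0627 to 0.185, Pdk1 at 0.0118 to 0.105, and the glucose transporter gene Slc2a1 at 0.222 to 0.458. In progenitors these were at 0.0185, 0.0200 and 0.148, and in fibroblast-like cells at 0.2999, 0.129 and 0.254. Over all mural cells Ankrd37 was at 0.284, against 0.0368 in progenitors. Bnip3 and Egln3 went the other way, at 0.0974 and 0.0495 against 0.196 and 0.09995 in progenitors. The glycolysis genes Ldha and Pgk1 were at 4.37 to 6.15 and 1.61 to 3.79, against 4.21 and 3.51 in progenitors.

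**Figure D2:**
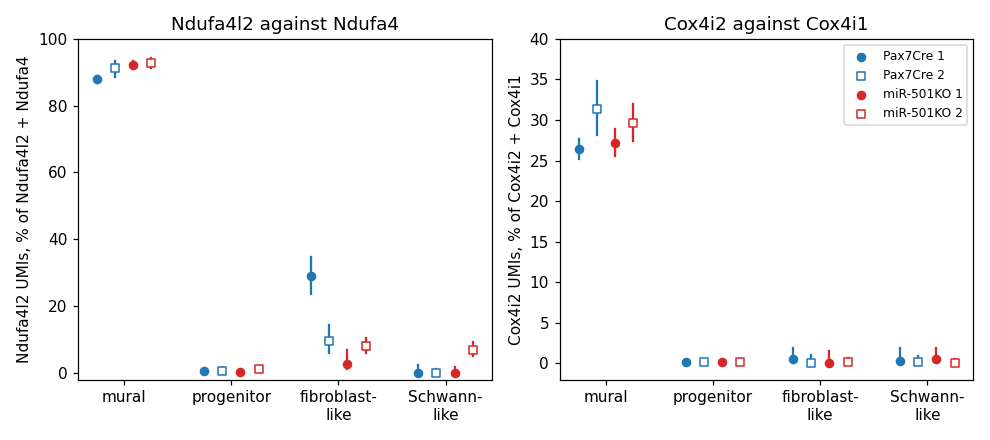
Share of Ndufa4l2 in the UMIs of Ndufa4l2 and Ndufa4 (left) and of Cox4i2 in the UMIs of Cox4i2 and Cox4i1 (right), in percent, by cell class and library. Bars are 95% Wilson intervals over UMIs. Ndufa4l2 took 87.9% to 92.9% in the mural cells of single libraries and 0.376% to 1.11% in their progenitors.

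Contractile genes ranged from high to nearly absent. Acta2, smooth muscle α-actin, was at 34.6, 20.7, 39.6 and 27.4, against 19.5 in progenitors, which also use this gene. Tagln (SM22α) was at 12.7, 10.1, 15.5 and 11.4 and Myl9, the regulatory myosin light chain, at 8.88, 8.09, 10.9 and 10.4. Mylk, the kinase that activates this light chain, was at 4.21, 3.20, 6.98 and 3.93 and at 0.0835 in progenitors. Myl9 was at 1.18, 1.60 and 0.283 in progenitors, fibroblast-like and Schwann-like cells. Other members were found in part of the cells, with Myh11 in 83.5%, Casq2 in 62.1%, Smtn in 60.5% and Lmod1 in 55.6%. The lowest members included Cnn1 (calponin) at 0.0920, 0, 0.106 and 0.0823 and in 7.41% of cells, Pln (phospholamban) in 1.65% and Itga8 in 8.64%. Myocd, the coactivator of smooth muscle genes, was at 0.0209 to 0.123 and in 11.1% of cells.

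The contractile genes varied strongly between single cells. Acta2 had a median of 20.5, 4.87, 12.3 and 7.77 UMIs per 10000 in the cells of the 4 libraries, and the upper 10% of cells began at 98.96, 73.6, 79.6 and 64.9. Its highest values were 167, 128, 198 and 153, and 2, 2, 4 and 4 cells held none. Tagln had medians of 3.79, 1.11, 2.36 and 1.77 and highest values of 117, 53.4, 111 and 92.2. Across the 243 cells the Spearman correlation with Acta2 was 0.802 for Tagln, 0.630 for Myl9, 0.368 for Mylk and 0.356 for Myh11, while that of Acta2 with Rgs5 was -0.177. The latter was -0.107, 0.346, -0.322 and -0.1998 within the libraries, so its sign differed between them. Within the libraries, Acta2 and Tagln correlated at 0.821, 0.693, 0.734 and 0.803. The points are cells of 4 libraries that share depth within a cell, and the coefficients are a description.

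**Figure D3:**
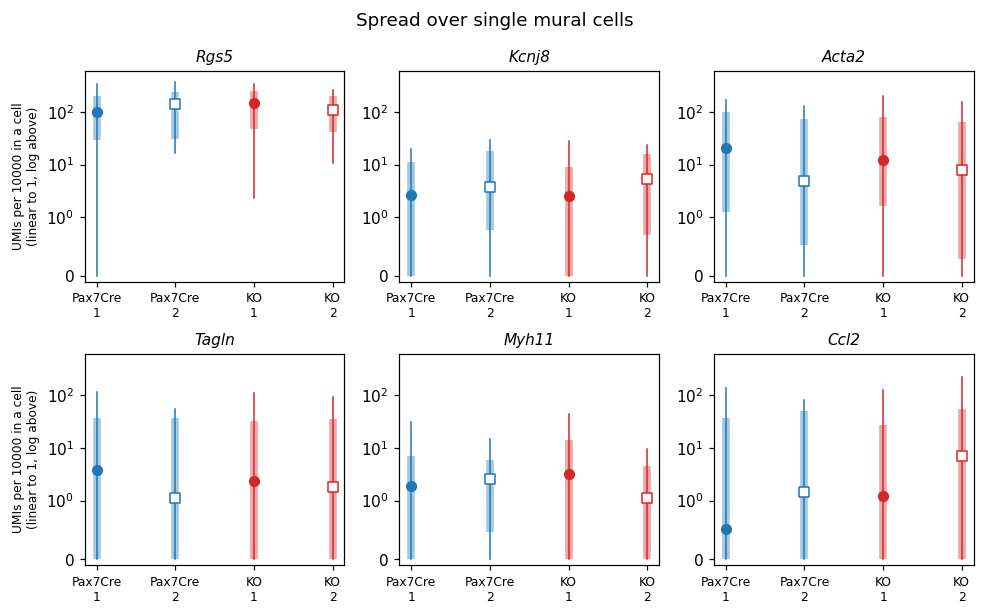
Spread of 6 genes over single mural cells by library, in UMIs per 10000 of a cell on an axis that is linear up to 1 and logarithmic above. Points are medians, thick bars run from the 10th to the 90th percentile of cells and thin lines from the lowest to the highest cell. Acta2 ran from 0 to between 128 and 198 in each library, and KO stands for miR-501KO.

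Contractile genes are classical targets of serum response factor, which binds CArG boxes. The promoters of Acta2 and Myl9 are shown because these genes varied together over cells (Spearman correlation 0.630). The search was for the CArG box of 10 bases, CC and GG around 6 bases of A or T, also with 1 of the 6 replaced. The pattern reads alike on both strands, and the window was the 250 bases before the gene start. Of 32851 promoters in the RefSeq table (GRCm38.p6), 1.47% held a full box and 8.59% one with at most 1 replacement. Of the contractile list, 17 of 20 genes had a promoter in the table, 2 of the 17 (Myl6 and Myl9) held a full box and 3 (these and Acta2) one with at most 1 replacement. A list gene counted when any of its promoters held a box, while the shares over the table count promoters, so the units differ. Myl6 had a promoter with the box and another without. The genes with no promoter in the table included Myh11 and Tagln, which correlated with Acta2 more closely than Myl9 did (0.802). None of the 5 rule genes in the table held either form. The 2 sequences run 5′ to 3′ on the strand of the gene, with the boxes in capitals, for Acta2 from chr19:34255374-34255623 on the minus strand and for Myl9 from chr2:156775214-156775463 on the plus strand.
Acta2: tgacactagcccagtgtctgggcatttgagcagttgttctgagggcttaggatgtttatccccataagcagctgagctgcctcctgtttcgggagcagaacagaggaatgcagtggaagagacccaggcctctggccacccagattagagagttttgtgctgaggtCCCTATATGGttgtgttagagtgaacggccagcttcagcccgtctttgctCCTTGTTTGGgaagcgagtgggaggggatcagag
Myl9: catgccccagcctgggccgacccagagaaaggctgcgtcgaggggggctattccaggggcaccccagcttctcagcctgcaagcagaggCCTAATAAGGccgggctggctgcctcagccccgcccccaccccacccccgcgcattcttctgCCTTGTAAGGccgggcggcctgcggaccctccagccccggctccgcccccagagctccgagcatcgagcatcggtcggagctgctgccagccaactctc
The boxes began 84 and 34 bases before the gene start in Acta2 and 161 and 99 bases before it in Myl9. A match is a description of the letters and no evidence of binding in these cells.

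Channels and receptors of vascular tone ranged from above 1 UMI per 10000 to a few UMIs in all. Ano1, the calcium-activated chloride channel, was at 0.536, 0.732, 0.998 and 0.529, and Itpr1, the receptor that releases stored calcium, at 0.507, 0.418, 0.819 and 0.694. Kcnma1, the large-conductance potassium channel of smooth muscle, had UMIs in only 0.823% of mural cells, and its partner Kcnmb1 in 16.1%.

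On the nitric oxide side, the cyclase subunits were joined by Prkg1, the cGMP-dependent kinase, at 0.745, 0.837, 1.18 and 0.893, and by its substrate Irag1 at 0.603, 0.376, 1.27 and 0.893. The phosphodiesterases Pde3a and Pde5a, which break down cyclic nucleotides, were at 0.916, 1.05, 1.72 and 0.928 and at 0.875, 0.753, 1.40 and 1.09. The endothelin receptor genes Ednrb and Ednra were at 2.66, 3.49, 3.98 and 3.03 and at 1.07, 1.51, 1.70 and 0.999. S1pr3, a receptor for sphingosine-1-phosphate, was at 1.69, 2.63, 2.62 and 1.72, the angiotensin receptor gene Agtr1a at 0.428, 0.544, 0.667 and 0.611, and the vasopressin receptor gene Avpr1a at 0.612, 0.314, 0.521 and 0.552. The α1-adrenergic receptor genes were at or under 0.0505 in every library, while the α2 gene Adra2a was at 0.726, 0.878, 0.662 and 0.423.

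Of the transcription factors, Ebf1 was at 7.46, 10.1, 9.81 and 9.63 and was detected in 91.8% of mural cells and 5.58% of progenitors after thinning. Meox2 was at 1.18, 0.878, 1.75 and 1.39, Nr2f2 (COUP-TFII) at 2.29, 2.30, 3.48 and 2.93 and Tbx2 at 0.628, 0.627, 1.21 and 0.858. Foxf2 and Zic1, which mark pericytes of the brain, had UMIs in 1.65% and 0.823% of cells. In the Notch pathway the receptor Notch3 was at 3.58, 3.30, 4.89 and 3.48, the target Heyl at 0.660, 0.774, 0.757 and 0.870 and the ligand Jag1 at 0.650, 0.774, 0.847 and 0.646. The other Notch receptor genes were lower, with Notch1 at 0.615 to 0.962 and Notch2 at 0.117 to 0.292.

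Growth factors and receptors of vessel growth were led by Adamts1, a secreted protease, at 4.05, 3.64, 8.05 and 3.33. Kitl, the stem cell factor, was at 2.33, 2.63, 3.62 and 2.34, and Pdgfa at 3.14, 2.87, 3.26 and 3.21. Pdgfb, the ligand of Pdgfrb, was at 0.0603, 0.523, 0.0336 and 0.0588. Angpt2, which loosens vessels, was at 0.365, 0.397, 0.561 and 0.482, and Angpt1, which stabilises them, at 0.117, 0.230, 0.213 and 0.129. Vegfa was at 0.143 to 0.224.

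Matrix genes of the basement membrane were abundant. Col4a1 and Col4a2, the chains of type IV collagen, were at 26.9, 31.8, 31.2 and 31.7 and at 12.2, 17.6, 14.9 and 14.7, against 3.004 and 1.78 in progenitors. The matricellular gene Sparc was at 60.8, 62.1, 56.3 and 73.6, and Nid1 (nidogen) at 4.12, 4.85, 4.61 and 4.95. Interstitial collagen genes were present but below the fibroblast-like cells, with Col3a1 at 26.1, 24.6, 23.2 and 34.5 against 105 and Col1a1 at 24.1, 11.4, 17.7 and 19.8 against 162. The 33 matrix genes summed to 262, 255, 256 and 281, so the 4 libraries were close in this sum.

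Inflammatory genes were high in part of the cells. The monocyte chemokine Ccl2 was at 9.11, 12.4, 9.92 and 18.3, and its median over single cells was 0.507, 1.47, 1.21 and 6.93 with 43, 8, 28 and 12 cells at 0. Cxcl1, which attracts neutrophils, was at 8.72, 11.2, 9.32 and 23.97, and the miR-501KO replicate 2 library stood above the others in both. The cytokine Il6 was at 4.85, 4.27, 9.10 and 5.18, against 0.0118 in progenitors. Cxcl10 was at 4.60, 15.3, 10.3 and 4.18, with both replicates of each group far apart. The correlation of Ccl2 with Cxcl1 over the 243 cells was 0.647 (Spearman).

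Interferon-induced genes summed to 54.9, 76.9, 87 and 80.5, against 16.2 in progenitors, 32.2 in fibroblast-like and 63.4 in Schwann-like cells. Ifitm3, a membrane protein that limits virus entry, was at 24.2, 26.5, 27.8 and 33.6, and B2m, the light chain of MHC class I, at 7.68, 14.2, 12.96 and 11.2. Immediate early genes, which respond within minutes to stress and to tissue digestion, summed to 111, 126, 119.9 and 117, with Junb at 20.5, 22.3, 22.99 and 22.3 and Fos at 16, 19.5, 17.5 and 16.3.

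Genes of the cell cycle were present as well. The 20 genes summed to 25.7, 20.7, 23.9 and 31.5 in mural cells, 25.9 in progenitors and 9.36 in fibroblast-like cells. Mki67 was at 1.79, 1.40, 2.50 and 3.35. After thinning, it was detected in 26.3% of mural cells and 24.4% of progenitors, and in 14.3% of fibroblast-like cells.

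To describe how mural cells differ among themselves, the 243 cells were clustered again, which gave 9 sub-clusters. Where a gene is given inside a sub-cluster against the other mural cells, both values are means over single cells in UMIs per 10000. Other levels are from UMIs summed over the sub-cluster. These genes shaped the clusters, so no value carries a test. Sizes by library are given in the usual order, and with 13 to 47 cells each they rest on few cells.

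Sub-cluster 1 (47 cells, 11, 8, 21 and 7) led in immediate early genes, with Fos at 56.99 against 12.5, Egr1 at 24.6 against 5.36 and Ccn1 at 5.27 against 1.02. Rgs5 was high there at 172 UMIs per 10000 and Acta2 low at 13.7. Sub-cluster 2 (39 cells, 19, 2, 10 and 8) led in Spaar and Txnip and had few chemokines, with Ccl2 at 0.179, Il6 at 0.244 and Fos at 7.77. Its Casq2, which encodes the calcium-binding calsequestrin, was at 3.87 against 1.37. These 2 sub-clusters had the highest summed level of the 7 rule genes, 224 and 209.

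Sub-cluster 3 (36 cells, 26, 2, 5 and 3) led in Egfl7 at 0.622 against 0.0424, with Fabp4 at 14.6 against 4.15 and the cyclin gene Ccnd1 at 3.41 against 1.15. The 8 endothelial genes summed to 5.81 there and to between 0.198 and 2.77 in the other sub-clusters. Sub-cluster 4 (31 cells, 11, 2, 10 and 8) led in mitosis and histone genes, with Top2a at 8.30 against 0.428, Ube2c at 7.72 against 0.323 and H2ac24 at 13.3 against 0.286, and it held cells of all 4 libraries. Its Rgs5 level was 78.6 and its Pdgfrb level 3.97.

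Sub-cluster 5 (25 cells, 8, 2, 9 and 6) led in interferon-induced genes, with Ifit3 at 4.17 against 0.207, Cxcl9 at 7.99 against 0.664 and Iigp1 at 15.7 against 3.30. It was also high in Ccl2 at 35.6 against 9.17 and Il6 at 21.8 against 5.64. Sub-cluster 6 (20 cells, 11, 1, 6 and 2) was the most contractile, with Acta2 at 79.5, Tagln at 47.1 and a summed contractile level of 291. Its leading genes were Colec11, the eosinophil chemokine gene Ccl11 at 18.7 against 1.19, the smooth muscle γ-actin gene Actg2 at 4.25 against 0.199 and the lymphoid chemokine gene Ccl19 at 2.83 against 0.144. Cspg4 was at 0.0561 and Casq2 at 0.0374 there, the latter against 4.04 in sub-cluster 7.

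Sub-cluster 7 (18 cells, 8, 0, 10 and 0) came from run 1 alone. It led in Crispld2 at 5.46 against 0.211 and in the neurotrophin receptor gene Ntrk2 at 3.75 against 0.245, and it had the highest Myh11, 12.3, next to 7.36 in sub-cluster 6. Kcnj8 was 1.06 there against 8.52 in sub-cluster 1, while Rgs5 stayed high at 146. Kitl reached 6.88 and Ednrb 9.19. Run and these cells cannot be told apart.

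Sub-cluster 8 (14 cells, 6, 1, 6 and 1) held all 9 cells that also met the progenitor rule and led in Itm2a, Spp1 and Myog, with the 7 progenitor genes at 6.17. Sub-cluster 9 (13 cells, 7, 1, 2 and 3) held all 6 cells that also met the fibroblast-like rule and led in Dcn, Lum and Mfap5, with the 8 fibroblast and tenocyte genes at 32.1. Both had low Rgs5, 37.1 and 23.8, and together they held 8 of the 13 cells with just 3 markers.

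**Figure D4:**
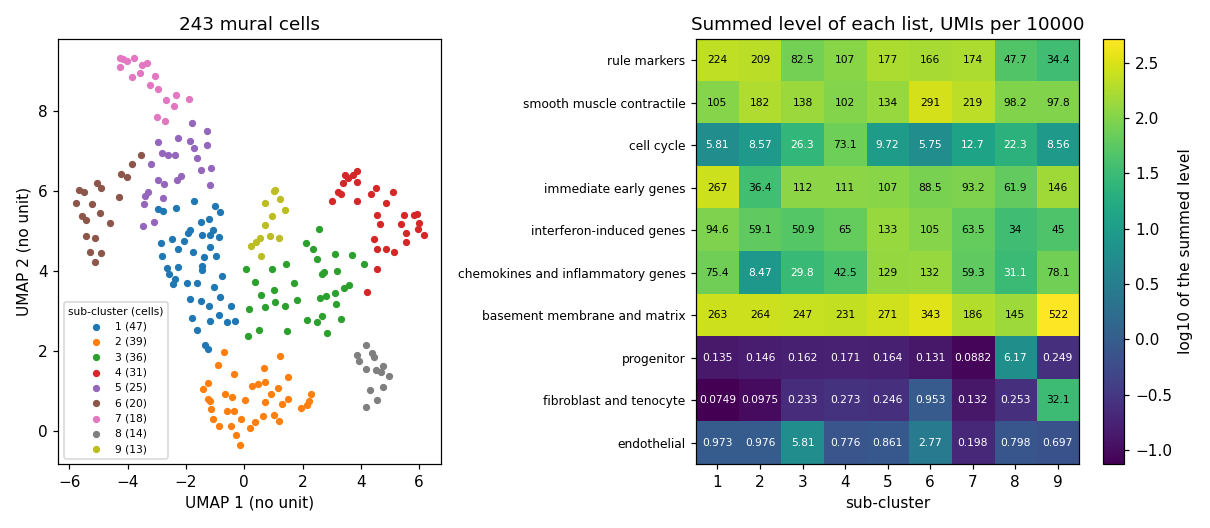
Left, map of the 243 mural cells coloured by sub-cluster, with axes that have no unit. Right, summed level of 10 gene lists in each sub-cluster, in UMIs per 10000, coloured on a log10 scale. Cell cycle genes reached 73.1 in sub-cluster 4, contractile genes 291 in sub-cluster 6 and immediate early genes 267 in sub-cluster 1.

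The comparison between genotypes asked which genes of mural cells differed between miR-501KO and Pax7Cre mice. Sums of UMIs per library were tested for 9207 genes in edgeR (quasi-likelihood test, Benjamini-Hochberg adjusted p under 0.05). In this test 2 genes rose in miR-501KO (0.0217% of those tested), and 2 fell (0.0217%). At an unadjusted p under 0.05 there were 428 genes. With run as a replicate block, because libraries with the same number came from the same run, 57 genes passed, 19 higher and 38 lower, and the 4 genes were among them. With cells of at least 4 markers in place of 3, no gene passed (379 at an unadjusted p under 0.05).

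Nts, which encodes the peptide neurotensin, rose by 3.80 ± 0.52 (SE) on the log2 scale (edgeR, adjusted p = 0.0251). It was at 0.0317, 0, 0.320 and 0.494, from 10, 0, 57 and 42 UMIs, and both knockout libraries were above both controls. The Pax7Cre replicate 2 library had no UMI of it, so the size of the fitted change is uncertain. The UMIs lay in 5, 0, 6 and 4 cells, and the highest cell held 27 of 57 UMIs in miR-501KO replicate 1 and 34 of 42 in miR-501KO replicate 2. Of all Nts UMIs in mural cells, 81.7% were in sub-cluster 6.

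Fst, which encodes follistatin, an inhibitor of activin and myostatin, rose by 1.73 ± 0.26 (SE; adjusted p = 0.0294). Its level was 0.422, 0.607, 1.497 and 1.87, in 32 of 107, 4 of 19, 20 of 79 and 9 of 38 cells. The 3 highest cells of a library held 48 of 133, 28 of 29, 145 of 267 and 112 of 159 UMIs. Without the highest cell of each library its level was 0.362, 0.245, 1.16 and 1.47. The groups still did not overlap, which the choice of a called gene favours. Sub-cluster 6 held 48.8% of Fst UMIs. With at least 4 markers the log2 changes were 3.79 for Nts and 1.74 for Fst, and neither passed (edgeR, adjusted p = 0.0595 for each). Without miR-501KO replicate 2 they were 3.50 and 1.53 (adjusted p = 0.0841 and 0.149), and Fst also missed the threshold with no limit on mitochondrial UMIs (0.0527).

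Mest, an imprinted gene that progenitors use strongly (11.4 there), fell by 1.95 ± 0.28 (SE; adjusted p = 0.0251). It was at 1.38, 2.32, 0.443 and 0.529 in mural cells, and both controls were above both knockout libraries. The 9 cells that also met the progenitor rule were 6, 1, 1 and 1 cells of the 4 libraries, and the 7 progenitor genes were lower in both knockout libraries as well. Without the cells that met another rule, Mest was at 0.438, 0.998, 0.338 and 0.288, and the change of -1.09 no longer passed (edgeR, adjusted p = 1.0). With cells of endothelial genes removed too, Mest was at 0.441, 0.312, 0.342 and 0.299, the groups overlapped and the change was -0.40. With at least 4 markers the change was -2.39 (adjusted p = 0.173) and without miR-501KO replicate 2 it was -2.09 (0.0841).

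Fbln2, which encodes the matrix protein fibulin-2, fell by 2.98 ± 0.47 (SE; adjusted p = 0.0314). It was at 0.409, 0.376, 0.0280 and 0.0940, with both controls above both knockout libraries, and the UMIs lay in 16, 4, 3 and 2 cells. Sub-cluster 9, led by Dcn and Lum, held 52.5% of them. Without the cells that met another rule it was at 0.141, 0.317, 0.0115 and 0.0917, with a change of -2.35 that did not pass (adjusted p = 0.898). With cells of endothelial genes removed too, it was at 0.0630, 0.0936, 0.0118 and 0. The adjusted p was 0.0634 with DESeq2, 0.0579 with no limit on mitochondrial UMIs and 0.916 with at least 4 markers.

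The 10 genes next in rank did not pass. They were picked only among genes whose group difference kept its sign from run 1 to run 2. All 10 passed with the replicate block (edgeR, adjusted p from 2.55e-08 for S100a4 to 0.0143 for H3c7). A test blocked by run rewards the property they were picked for, so these passes are no independent evidence. Ifi27l2a, an interferon-induced gene, was at 2.48, 1.61, 5.73 and 6.17, with a log2 change of 1.44 ± 0.24 (SE; edgeR, adjusted p = 0.0503). It passed with the replicate block (4.27e-05), with DESeq2 (0.00132) and with at least 2000 UMIs (0.0473). In edgeR it did not pass with at least 4 markers (adjusted p = 0.177) or without cells that met another rule (0.155). It also missed the threshold with no limit on mitochondrial UMIs (0.0908) and with other size factors (0.0532). In miR-501KO replicate 2, 303 of its 525 UMIs were in 1 cell, and without the highest cell of each library the levels were 2.03, 1.02, 5.34 and 2.72. Ifi44, from the same response, was at 0.0190, 0.0209, 0.286 and 0.141, from 6, 1, 51 and 12 UMIs (adjusted p = 0.0503). Usp18, H3c7 and Lum were the others on the higher side, with adjusted p from 0.209 to 0.515, and 154 of 193 Lum UMIs in miR-501KO replicate 2 were in 1 cell.

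On the lower side, S100a4, a calcium-binding protein, was at 2.82, 6.504, 1.76 and 0.576 (log2 change -1.97 ± 0.41, SE; adjusted p = 0.209). In Pax7Cre replicate 2, 301 of its 311 UMIs lay in 1 cell, and without the highest cells the order changed to 2.37, 0.249, 1.45 and 0.467. Sox11, a transcription factor gene, was at 0.384, 0.460, 0.146 and 0.0588, and 19 of its 22 UMIs in Pax7Cre replicate 2 were in 1 cell. Cthrc1, Ccn4 and Gpx3 also ranked here, with adjusted p of 0.102, 0.146 and 0.155.

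**Figure D5:**
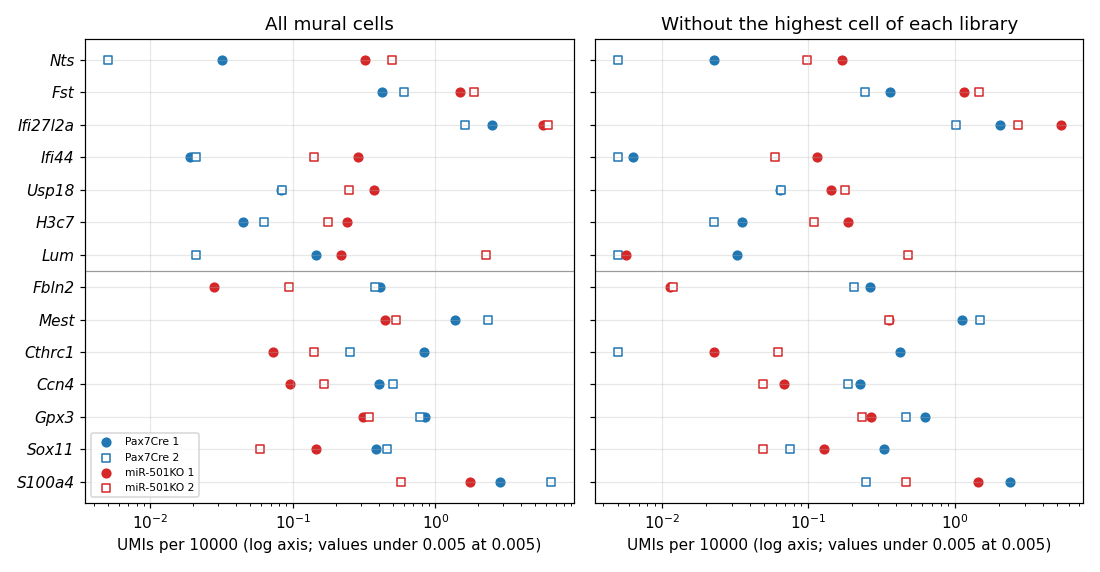
Level of the 14 genes named from the genotype test in the mural cells of each library, in UMIs per 10000 on a log axis, over all cells (left) and without the highest cell of each library (right). Genes above the line had higher and genes below lower fitted levels in miR-501KO, and only Nts, Fst, Fbln2 and Mest passed the test. S100a4 in Pax7Cre replicate 2 went from 6.504 to 0.249 without 1 cell.

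None of the 24 gene lists held a gene that passed the genotype test as first set out above. With the replicate block, Ifi27l2a of the interferon list and Lum of the fibroblast list were among those that passed. Both also passed in edgeR with no filter on low counts, and Ifi27l2a passed with DESeq2 and with at least 2000 UMIs. The 7 rule genes had a median log2 change of 0.10, the 10 further pericyte genes 0.13 and all 9207 genes 0.02. For the contractile genes, 17 of 18 tested had a fitted change above 0 (4819 of 9207 over all genes; median 0.27), and 11 of the 18 were higher in the knockout within both runs, against 2713 of 9207 over all genes. Myh11 had a log2 change of 0.72 ± 0.37 (SE, adjusted p = 0.999), with miR-501KO replicate 1 alone above the rest.

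All 11 nitric oxide and cGMP genes tested had a fitted change above 0, against 4819 of 9207 over all genes (median 0.40), and the list summed to 12.03, 13.3, 19.8 and 14.3. Irag1 had the lowest p of this list, with a log2 change of 0.99 ± 0.28 (SE; adjusted p = 0.721). For interferon-induced genes, 22 of 24 tested had a fitted change above 0 (median 0.45), against 4819 of 9207 over all genes. Of the 24, 6 had an unadjusted p under 0.05, against 428 of 9207. Within both runs 11 of the 24 were higher in the knockout, against 2713 of 9207 over all genes. Ifit1 and Ifit3 were at 0.254, 0.251, 1.30 and 0.259 and at 0.238, 0.126, 1.42 and 0.259, so miR-501KO replicate 1 stood alone.

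For the remaining lists, median log2 changes were 0.13 for the transcription factors, 0.27 for channels and pumps, 0.13 for vasoactive receptors, 0.15 for RGS genes, 0.11 for the Notch pathway and 0.22 for vessel growth genes. They were -0.05 for the matrix, -0.01 for hypoxia and respiratory chain genes, -0.09 for chemokines, 0.02 for immediate early genes and 0.09 for the cell cycle. For the lists of other cell types the medians were -1.30 over 4 progenitor genes, -2.53 over 6 endothelial genes, 2.07 over 4 fibroblast and tenocyte genes and -0.12 over 7 myofibre genes. Of the 6 endothelial genes, 5 had an unadjusted p under 0.05, against 428 of 9207 over all genes. For one of the endothelial genes, Cdh5, all 84 UMIs of Pax7Cre replicate 2 lay in 1 cell.

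A second test asked whether the genotype effect differed between mural cells and progenitors, with 14453 genes in edgeR and the library as a block. It called 96 genes (0.664% of those tested), 16 with a higher and 80 with a lower effect in mural cells. Among the 4 genes above, Fst differed by 1.59 ± 0.26 (SE), Mest by -1.71 ± 0.22 and Fbln2 by -3.00 ± 0.39 on the log2 scale. In progenitors their changes were 0.08, -0.20 and 0.02. Nts, which had UMIs in 0.0776% of progenitors, was not called (difference 3.54 ± 2.18, SE). Mki67 and Ccnb1 of the cell cycle list had higher effects in mural cells (0.85 and 0.96), while Cxcl10, Ccl11 and Il33 of the chemokine list had lower ones (-0.98, -1.06 and -1.52). In mural cells the genotype difference of each of these 3 chemokine list members had opposite signs in the 2 runs, with Cxcl10 higher in the knockout in run 1 and lower in run 2. Genes of other cell types were also among the lower ones, with the progenitor genes Cdh15 (-1.27) and Fgfr4 (-2.17), the myofibre gene Mylpf (-1.33), and Pecam1 (-3.78) and Ly6a (-3.14), while Lum (2.64) was among the higher ones. This test was open to single cells, as the gene with its lowest p, the haemoglobin gene Hbb-bs, had 4982 UMIs in Pax7Cre replicate 1, all of them in 1 cell. DESeq2 called 6 genes, and 44 were called without the cells that met another rule.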

How the data were processed

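Cells of 4 libraries were measured by droplet 3′ RNA sequencing (Chromium v3.1). The deposited matrices hold raw UMI counts per gene and barcode, which the authors made with Cell Ranger (version 6.0.2 per the file headers). The submitters' processing notes list the genome build GRCm39. The sort was set to exclude doublets and dead cells.

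Cells were kept with at least 5000 UMIs, 1000 genes and at most 10% mitochondrial UMIs. Mural cells, progenitors, fibroblast-like and Schwann-like cells were chosen by marker rules. The members and the gene lists were chosen with earlier results of these data known. UMIs were summed per library and class and tested with edgeR 4.0.16 (TMM scaling, quasi-likelihood test, filter on low counts, no replicate block, R 4.3.3). Adjusted p-values are Benjamini-Hochberg values over all genes tested, with 0.05 as the threshold. The library, a pool of 3 mice, is the replicate, so p-values measure the spread between pools. Replicates differed by more than counting noise (chi-square per degree of freedom 4.60 and 5.07). Libraries of the same number share a run per the labels, and the difference between runs correlated at 0.0266 over genes between the 2 groups. Genes named were those of the rule, up to 20 leading genes, the called genes and the 5 of lowest p in each direction with the same sign in both runs, and the highest members of each list. Other list members were named after their values were seen. Shares were compared with an exact permutation test. To compare detection between classes, each cell was thinned to 5000 UMIs. Mural cells were clustered with scanpy 1.11.5 (1000 variable genes, 20 components, 10 neighbours, resolution 1.0). No doublet caller was run. The scripts were tested on simulated data. Sequences are from RefSeq tables of GRCm38.p6, another build than the files'. Alternatives were DESeq2 1.42.0, other size factors, other cell limits, removal of cells that met another rule, and each library left out.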

Additional observations from a re-analysis of the deposited data

Results flagged for a closer look

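The genotype effect differed between mural cells and progenitors for 96 genes by the test of the difference itself (edgeR, quasi-likelihood test with Benjamini-Hochberg adjustment). Of the genes named in the genotype comparison, the difference of the log2 changes, mural cells minus progenitors, was 1.59 for Fst, 0.80 for Ifi27l2a and 2.64 for Lum. It was -3.00 for Fbln2, -1.71 for Mest, -2.81 for Cthrc1, -1.98 for Ccn4, -1.58 for Gpx3, -1.92 for Sox11 and -1.93 for S100a4. For Lum, 154 of 193 UMIs of miR-501KO replicate 2 were in 1 mural cell, and in Pax7Cre replicate 2 a single cell held 301 of 311 UMIs of S100a4, 12 of 12 of Cthrc1 and 19 of 22 of Sox11. Without cells that met another rule, the levels in both Pax7Cre libraries fell from 1.38 and 2.32 to 0.438 and 0.998 UMIs per 10000 for Mest and from 0.3996 and 0.502 to 0.175 and 0.146 for Ccn4.

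Cells left out of the mural cells for holding Cd74 were uneven. With 3 or more markers and Cd74 UMIs the miR-501KO replicate 1 library had 51 cells, while the Pax7Cre libraries had 7 and 2 and the other knockout library had 3. Of the 51, 42 had just 3 markers, and they held 0.976 UMIs of Rgs5 per 10000, 21.5 of Mylpf and 7.67 of the macrophage gene Lyz2. In the same library 1705 of 2722 kept cells had no Cd74 UMI.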

How the results depend on the processing

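The difference in the share of mural cells turned to -0.0164 points with at least 4 markers and to -0.0993 with at least 2000 UMIs, and was between -0.565 (without replicate 2) and 0.733 (without replicate 1). As a share of cells without Cd74 UMIs it was 0.764 points (exact p = 0.667). Against 4 genes called in mural cells, 0 were called with at least 4 markers, 2 with no limit on mitochondrial UMIs, 2 with cells that met another rule removed, 106 with no filter on low counts and 57 with the replicate block. Leaving out 1 library gave 5 (miR-501KO replicate 2) to 115 (Pax7Cre replicate 1) genes, with 79 without Pax7Cre replicate 2 and 31 without miR-501KO replicate 1. DESeq2 called 4 genes, 3 of them shared, and 6 were called when cells with endothelial genes were removed too, a choice made after seeing the data. Against 96 genes with a different effect, DESeq2 called 6, removal of cells that met another rule left 44, and leaving out 1 library gave 44 (miR-501KO replicate 1) to 133 (Pax7Cre replicate 1), with 60 without Pax7Cre replicate 2. For none of these shifts in counts was the cause tested. None of the 14 named genes changed its sign, but they were chosen for the same sign in both runs, which favours this. Lum was fitted in 10 of these settings and Fbln2 in 12, against 13 for the other genes. Lum had no fit with at least 4 markers or without cells that met another rule. The depth limit was Pax7Cre replicate 2, with 19 mural cells.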
